A study of Homo sapiens with 3 samples.

Results

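ATF4, its processed pseudogenes ATF4P3 and ATF4P4, and RNF157, the gene in which ATF4P3 lies, were examined entry by entry. They are 4 of the 5932 gene identifiers in the deposited table (5 of 14338 rows in its glucose block and 4 of 14333 in its glutamine block), chosen by their RPM levels in the 3 libraries and the ratios between them, so every level and ratio of theirs is a description without a test. ATF4 and RNF157 carry their symbols in the table, while ATF4P3 and ATF4P4 have a blank symbol and were found by gene identifier (ENSG00000228218 and ENSG00000256167). The RNA came from 95D, an established human lung cancer cell line labelled WT, with 1 library each from cells kept 48 h in glucose-deficient medium, in glutamine-deficient medium or in control conditions. The deprived cells, seeded 24 h earlier in complete medium, had DMEM without the nutrient and with 10% dialyzed serum, while the labels do not say which serum the control had in those 48 h. The labels' protocols describe the same capture for all 3 libraries, with full-length DAMER, a long non-coding RNA made in vitro and biotinylated at its 3′ end, as bait for RNA in the lysate. Since the sample titles mention RNA sequencing without a capture, the nature of the control library is not settled.

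ATF4 is a basic leucine zipper transcription factor and the main effector of the integrated stress response. When kinases that sense amino acid shortage, misfolded protein, haem lack or double-stranded RNA phosphorylate the initiation factor eIF2alpha, most translation slows, while upstream open reading frames in the ATF4 mRNA let more ATF4 protein be made. ATF4 then pairs with C/EBP and other zipper proteins and turns on genes for amino acid synthesis, uptake and tRNA charging. A processed pseudogene is a copy of a spliced mRNA that was written back into the genome. RNF157 encodes a RING-type ubiquitin ligase related to MGRN1.

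In GRCh38 coordinates of GENCODE release 29, ATF4 lies at chr22:39519695-39522685 on the plus strand. ATF4P3 lies at chr17:76225751-76226806 on the minus strand and ATF4P4, annotated as a transcribed pseudogene, at chr11:113789231-113791366 on the plus strand. RNF157 spans chr17:76142453-76240373 on the minus strand. ATF4P3 sits in intron 1 of the transcript RNF157-201, which has 19 exons, on the same strand as RNF157. It lies 13346 bp from exon 1 and 13268 bp from exon 2, and 0 exons of the 10 annotated RNF157 transcripts overlap it. The deposited table gives no coordinates for its entries, so which bases of these genes each entry covers is unknown.

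**Figure D1:**
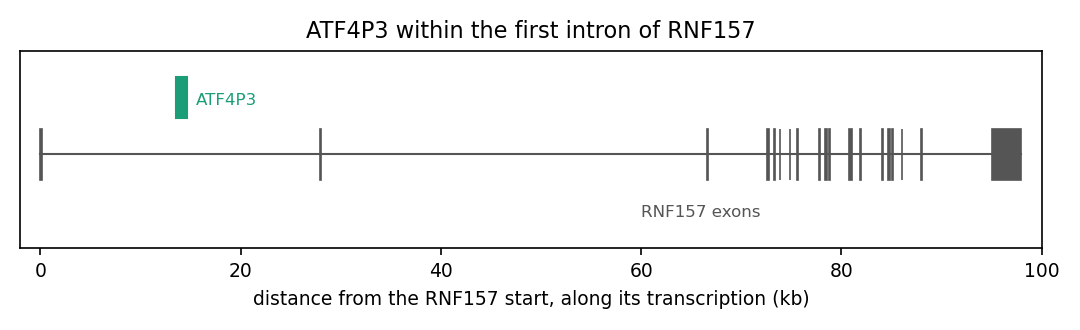
RNF157 drawn to scale from its start along the direction of transcription, with distance in kb on the x axis, the exons of RNF157-201 as grey boxes and ATF4P3 as a green box. ATF4P3 begins 13567 bp from the RNF157 start and lies wholly within the first intron.

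The coding sequence of ATF4, 1056 bases or 352 codons with the stop codon, falls in both exons of ATF4-201, with 226 bases in exon 1 and 830 bases in exon 2. ATF4P3 matched it end to end with 26 mismatches and no gap, an identity of 97.5%. Of these mismatches, 7 fell on first, 9 on second and 10 on the third codon positions, and the first in-frame stop codon of ATF4P3 was codon 352, where ATF4 ends. ATF4P4 matched 1049 of the 1056 bases with 31 mismatches and an identity of 97.0%. It lacked 2 bases, at coding positions 400 and 565, and its first in-frame stop codon was codon 138. Both pseudogenes differed from ATF4 at 9 shared positions, with the same base in each pseudogene at all 9. ATF4P1 and ATF4P2 on chromosome X have the same annotated sequence as each other and were less like ATF4, with 75 mismatches, 16 deleted and 33 inserted bases. ATF4P1 and ATF4P2 had 0 listed entries in either block, so neither has a value.

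The following stretch is shown because a sequenced read was 150 bases long and in this window, coding bases 227 to 376, the pseudogenes differ from ATF4 at as many positions as in any window that lies wholly in exon 2 and that ATF4P4 matches without a gap. Windows across the exon junction were not considered. All sequences were taken from the GENCODE release 29 transcripts. Capitals in the ATF4 line (chr22:39521773-39521922, plus strand) mark the 10 positions at which either pseudogene differs. Capitals in the other lines mark bases that differ from ATF4, 6 in ATF4P3 (chr17:76226431-76226580, minus strand) and 6 in ATF4P4 (chr11:113790544-113790693, plus strand).
ATF4: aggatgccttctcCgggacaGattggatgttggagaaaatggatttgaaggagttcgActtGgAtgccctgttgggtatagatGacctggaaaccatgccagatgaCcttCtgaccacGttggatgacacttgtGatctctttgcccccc
ATF4P3: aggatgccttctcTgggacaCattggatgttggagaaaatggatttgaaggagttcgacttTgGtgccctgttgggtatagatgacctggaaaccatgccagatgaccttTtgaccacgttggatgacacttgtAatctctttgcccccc
ATF4P4: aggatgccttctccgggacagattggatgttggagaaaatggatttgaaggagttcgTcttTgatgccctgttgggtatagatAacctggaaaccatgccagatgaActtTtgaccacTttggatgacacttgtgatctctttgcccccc

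The opposite case, shown because a fragment of RNA within it fits ATF4, ATF4P3 and ATF4P4 equally, is the longest stretch identical in the 3 genes. It has 96 bases, coding bases 591 to 686 of ATF4 (chr22:39522137-39522232, plus strand).
ATF4, ATF4P3 and ATF4P4: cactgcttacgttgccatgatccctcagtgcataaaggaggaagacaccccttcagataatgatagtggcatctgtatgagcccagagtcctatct

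Of the 907 windows of 150 bases in the ATF4 coding sequence, 0 were identical to ATF4P3 and 0 to ATF4P4. A window held 1 to 7 differences from ATF4P3, with a median of 4, and 2 to 9 from ATF4P4, with a median of 5. ATF4P1 and ATF4P2 differed at 6 to 24 bases of a window, with a median of 12. Every full-length read wholly inside the coding sequence therefore carries at least 1 base that separates ATF4 from each pseudogene in the annotated sequence. The labels do not say whether reads that align to several loci were kept, so how reads were divided among these loci was not tested. Searched against 206694 GENCODE transcripts, the ATF4-201 mRNA of 2019 nt met 4 other genes over at least 150 nt, namely ATF4P1, ATF4P2, ATF4P3 and ATF4P4. The RNF157 transcripts gave 0 matches. ATF4P4-201 also matched bases 1 to 189 of the ATF4-201 mRNA at 92.1% identity and then resumed at base 791. The shorter transcript ATF4-202 joins ATF4-201 at the same places, bases 189 and 791.

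**Figure D2:**
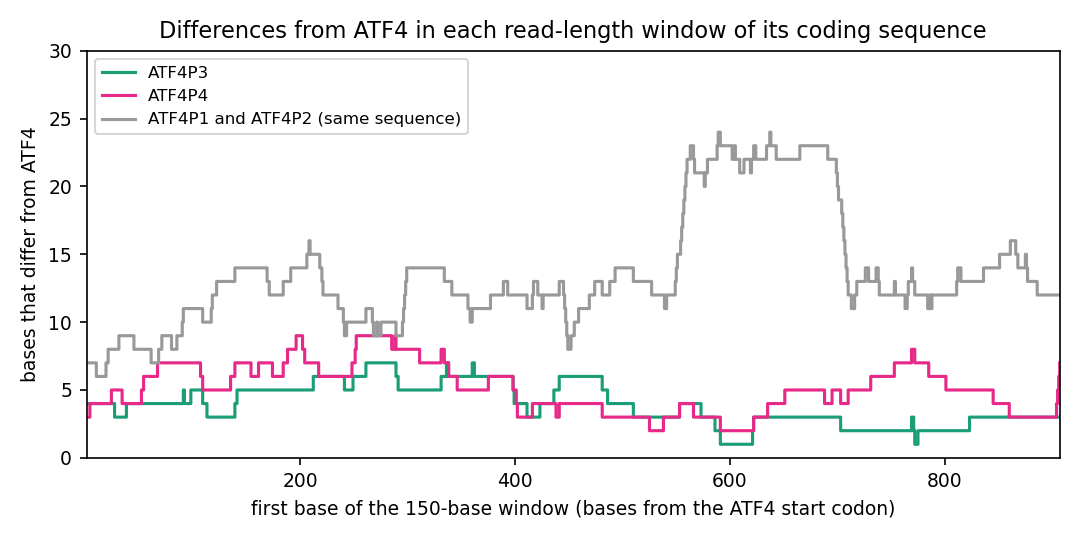
Number of bases that differ from ATF4 (y axis) in each window of 150 bases of the ATF4 coding sequence, by the first base of the window counted from the start codon (x axis), for ATF4P3 (green), ATF4P4 (magenta) and ATF4P1 with ATF4P2 (grey). Deleted bases, and coding bases past the end of a pseudogene, count as differences; ATF4P3 stays between 1 and 7 and ATF4P4 between 2 and 9.

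The values are in RPM, fragments scaled to a common library total, with 0.5 fragment added to every entry. The steps of the lowest values gave totals of 18775817 fragments in the glucose-deficient, 18301611 in the glutamine-deficient and 3781862 in the control library. The upper limit that 0 fragments leave is the level of 3 fragments, which is 0.160 RPM for glucose-deficient, 0.164 RPM for glutamine-deficient and 0.793 RPM for control cells. Intervals are 95% intervals of counting error only, because PCR copies are not independent molecules. Nothing here has a replicate check, since each condition has 1 library. Of markers of the labelled cell type, 1 of 7 epithelial genes had a listed entry, KRT8, a keratin, with 0 fragments in either deprived library and 24 in the control. Of 4 mesenchymal genes, 2 had a listed entry. VIM, for vimentin, had 0, 0 and 292 fragments in the same order, and ZEB1 had 0, 0 and 19. None of 5 leukocyte, 4 fibroblast, 4 endothelial and 3 erythroid markers had a listed entry.

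ATF4 made up nearly all of both deprived libraries. Its single entry stood at 998517 RPM in the glucose-deficient library, 998557 RPM in the glutamine-deficient library and 237 RPM in the control library. In fragments these were 18747971.5 and 18275201, each known to about 9 fragments because the deposited values have 6 significant digits, against 897.5 in the control. ATF4 therefore held 99.852% (99.850 to 99.853) of glucose-deficient fragments, 99.856% (99.854 to 99.857) of glutamine-deficient fragments and 0.0237% (0.0222 to 0.0253) of control fragments. The level was 4208-fold that of the control in each deprived library (3941 to 4497 in both), a log2 ratio of 12.03 on the scale of log2(RPM + 1). Both comparisons use the same control library, so their intervals share its 897.5 fragments. A value that fills a library can rise no further, so the near-equal ATF4 levels of the deprived libraries do not measure equal amounts in cells. In such bulk libraries, fewer cells with other RNA and less of that RNA per cell cannot be told apart. Nor can either be told apart from a difference in what the bait captured, or in whether the control was captured.

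The entry that ATF4P3 and RNF157 share was also higher in both deprived libraries. Glucose-deficient cells gave 652 RPM (12240 fragments) and glutamine-deficient cells 531 RPM (9715 fragments), against 6.48 RPM (24 fragments) in the control library. Those fragments were 103-fold the control level in the glucose-deficient library (69.0 to 160) and 83.7-fold in the glutamine-deficient library (56.2 to 131). On the log2(RPM + 1) scale the ratios were 6.45 and 6.15. The table repeats the same values under both genes, and this is the only entry of RNF157, so no value belongs to RNF157 alone. ATP5MGP6, a processed pseudogene, and the antisense gene RNF157-AS1 also overlap RNF157, and AP003170.2 overlaps ATF4P4; none of the 3 had a listed entry, and with strand use unstated their reads cannot be told apart from those of the gene they overlap. Within 50 kb of RNF157, 1 of 7 other annotated genes had a listed entry: UBALD2, 24829 bp away, had 0 fragments in each deprived library and 26 in the control.

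ATF4P4 was higher in both deprived libraries, but its entries differed between the 2 blocks of the table. The glutamine block lists 1 entry, with 123 RPM (2244.5 fragments) in the glutamine-deficient library and 9.78 RPM (36.5 fragments) in the control library. The glucose block lists 2 entries. The first had 48.8 RPM (915 fragments) in the glucose-deficient library against the same 36.5 control fragments, a fold of 5.05 (3.63 to 7.24). The second had 93.4 RPM (1754 fragments) in the glucose-deficient library and 0 fragments in the control library, which is at least 118-fold higher at a floor of 3 control fragments; the counting interval of this ratio starts at 95.7. Summed, ATF4P4 had 2669 glucose-deficient fragments, 14.7-fold the control level (10.6 to 21.0), and in the glutamine-deficient library its fold was 12.7 (9.17 to 18.1). The corresponding log2 ratios were 3.71 and 3.52. The entry with the control's 36.5 fragments alone gave 2.21 on that scale in the glucose comparison.

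**Figure D3:**
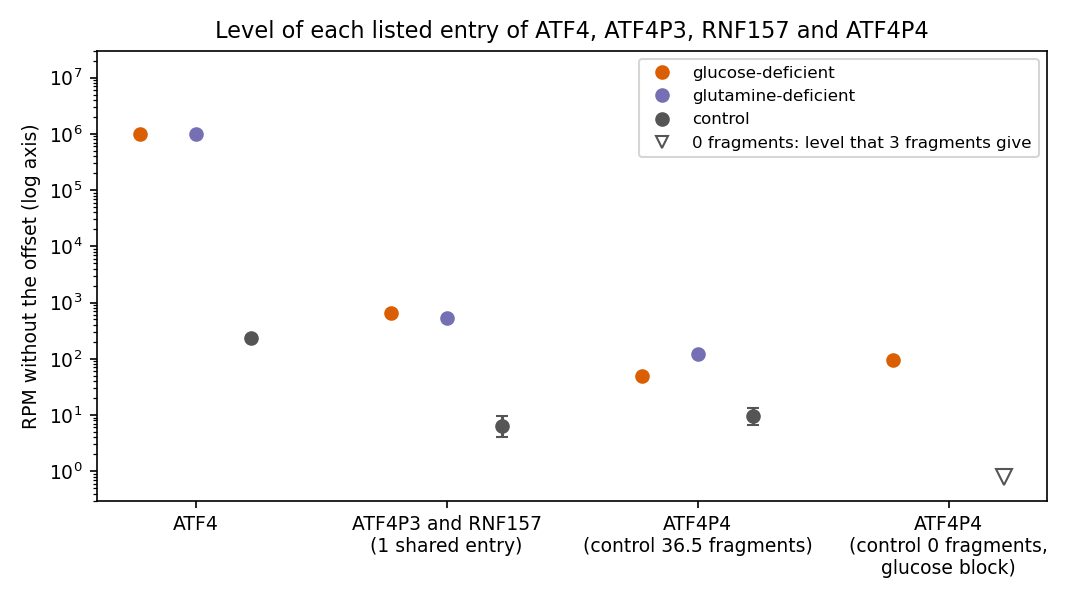
Level of each listed entry in RPM without the offset, on a log axis, in the glucose-deficient, glutamine-deficient and control libraries from left to right; bars are 95% counting intervals and the open triangle marks the 0.793 RPM that 3 control fragments give. Every entry lies higher in the deprived libraries than in the control, and ATF4 lies at 998517 and 998557 RPM in the deprived libraries.

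All 4 members were at least 2-fold higher in each deprived library, as were, members included, 0.118% of 5931 tested genes with glucose deficiency and 0.0675% of 5928 with glutamine deficiency. These shares rest on the contrast that chose the members and nothing is read from them. Over all tested genes the log2 ratio had a median of −3.92 in the glucose and −3.93 in the glutamine comparison, and 99.9% of tested genes were at least 2-fold lower in each. With 99.931% (glucose) and 99.921% (glutamine) of fragments in ATF4 and its pseudogenes, against 0.0253% in the control library, every other gene has little room on this scale. With ATF4 and its pseudogenes left out of the totals, the split was 5205 genes higher and 99 lower in the glucose and 4977 and 144 in the glutamine comparison. Taking the offset off as well gave 250 higher and 5459 lower, and 23 higher and 5894 lower, so most of those higher calls came from the scaled offset. A gene with no deprived fragments counts as lower there. With only 12936 (glucose) and 14450 (glutamine) fragments outside ATF4 and its pseudogenes, its upper limit is loose. Most of these lie in no listed entry. All listed entries held 18764037 glucose-deficient and 18287321 glutamine-deficient fragments, and ATF4 and its pseudogenes alone 18762880.5 and 18287160.5. In the control, listed entries held 22.67% of fragments. All 4 members stayed higher with each of these scalings, but this was fixed in advance. Taking their own fragments out of the totals scales the deprived values up, so their ratios could only rise. The median log2 ratio moved to 2.2 and 2.0 with the offset kept in and to −3.63 and −3.95 with it taken off.

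**Figure D4:**
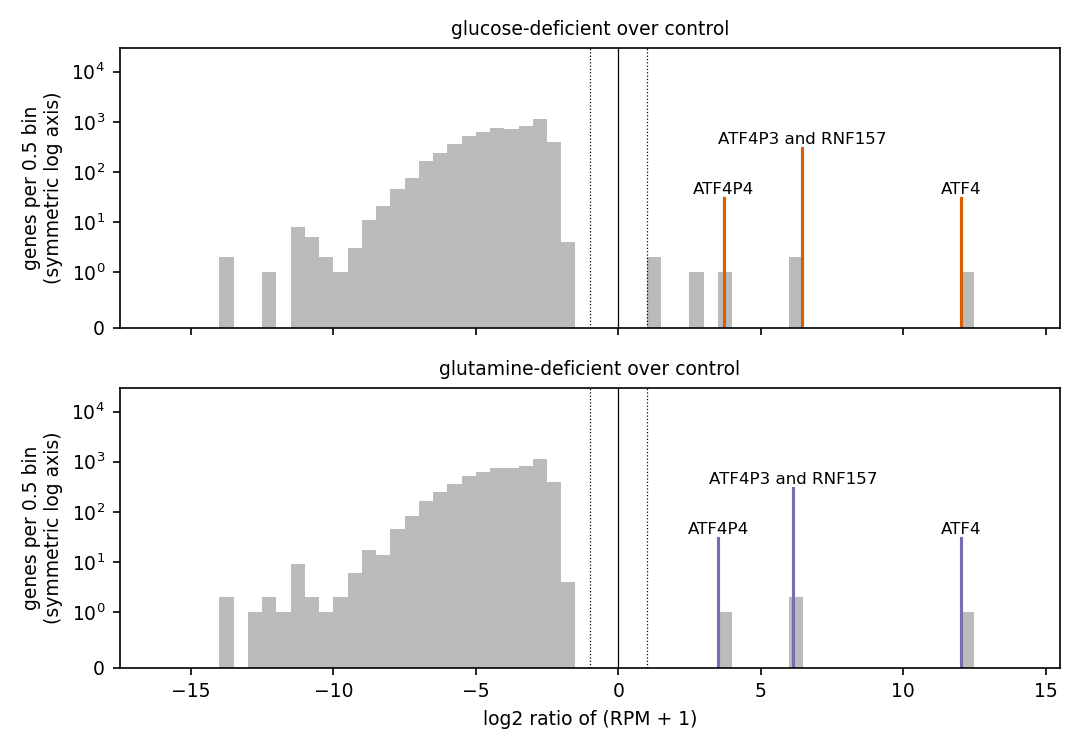
Number of genes per bin of 0.5 (y axis, symmetric log scale) by log2 ratio of RPM + 1 (x axis), for the glucose-deficient over the control library (upper panel) and the glutamine-deficient over the control library (lower panel). Coloured lines mark ATF4 at 12.03 in both panels, the shared entry of ATF4P3 and RNF157 at 6.45 and 6.15, and ATF4P4 at 3.71 and 3.52, and dotted lines mark a ratio of 2 in either direction.

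Ratios within a library do not depend on how libraries are scaled to each other. For every 1000 ATF4 fragments, the shared entry of ATF4P3 and RNF157 had 0.653 fragments (0.641 to 0.665) in the glucose-deficient library, 0.532 (0.521 to 0.542) in the glutamine-deficient library and 26.7 (17.0 to 40.1) in the control library. ATF4P4 had 0.142 (0.137 to 0.148) in the glucose-deficient, 0.123 (0.118 to 0.128) in the glutamine-deficient and 40.7 (28.4 to 56.6) in the control library. Relative to ATF4, the shared entry was thus 41-fold lower in the glucose-deprived and 50.3-fold lower in the glutamine-deprived library than in the control. ATF4P4 was 286-fold and 331-fold lower on the same measure. The pseudogene entries thus stood higher in RPM and lower per ATF4 fragment in the deprived libraries. The ratio of the pseudogene entries to each other also differed: the shared entry had 4.59 fragments per ATF4P4 fragment (4.40 to 4.78) in the glucose-deficient library, 4.33 (4.13 to 4.53) in the glutamine-deficient library and 0.658 (0.376 to 1.13) in the control library. The control interval includes equal numbers, so which of the pair is more frequent there was not detectable at this depth. In the glucose-deficient library ATF4P4 sums 2 entries, of 915 and 1754 fragments, while in the glutamine-deficient library it has 1. With the entry of 915 alone, ATF4P4 would stand lower per ATF4 fragment and the shared entry higher per ATF4P4 fragment. The closeness of 4.59 and 4.33 therefore depends on which entries are summed.

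**Figure D5:**
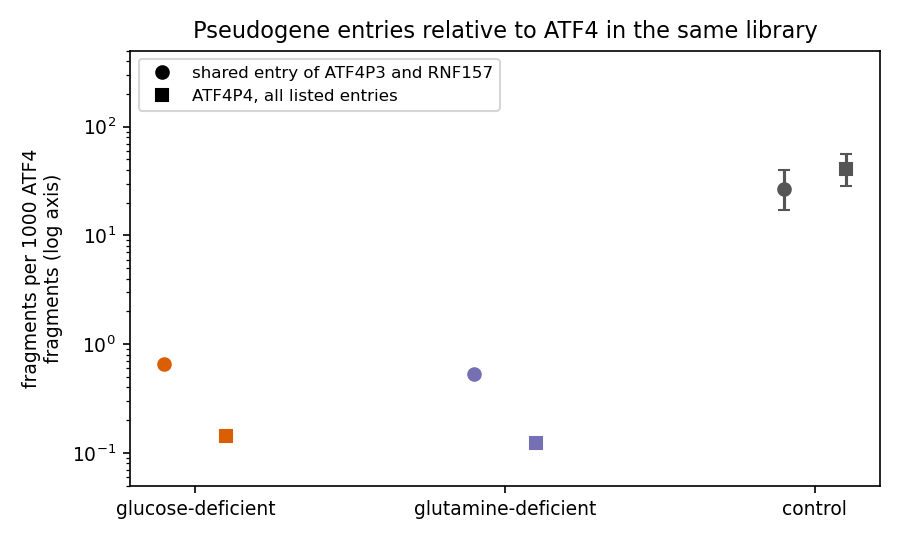
Fragments of the shared entry of ATF4P3 and RNF157 (circles) and of ATF4P4 (squares) per 1000 ATF4 fragments of the same library, on a log axis, with 95% counting intervals, in the glucose-deficient, glutamine-deficient and control libraries. The 4 values of the deprived libraries lie between 0.123 and 0.653, and the control values are 26.7 and 40.7.

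Between the deprived libraries the members differed by less than 2-fold with entries summed. ATF4 in the glucose-deficient library was 0.99996-fold that of the glutamine-deficient library (0.99932 to 1.0006). This interval ignores that ATF4 nearly fills a fixed total, so it is too wide. The intervals of the shares themselves, 99.850 to 99.853% with glucose and 99.854 to 99.857% with glutamine deficiency, did not overlap. They too hold counting error only, with 1 library per condition, so no difference between the conditions is read from them. The shared entry of ATF4P3 and RNF157 was 1.23-fold higher in the glucose-deficient library (1.20 to 1.26), and ATF4P4 1.16-fold (1.10 to 1.23) with all its entries summed. With the entry of 36.5 control fragments alone, ATF4P4 was 0.397-fold the glutamine-deficient level (0.368 to 0.429). Equal control values do not show that the 2 blocks list the same bases, so the direction for ATF4P4 depends on which entries are compared. At 2-fold, 0 of the 4 members were called, while 18.8% of 16 tested genes were higher in the glucose-deficient library and 0% lower. ATF4, which nearly fills both libraries, could not be called, and ATF4P3 and RNF157 are 1 entry. The 16 genes, members included, are those at 1 RPM or more in either deprived library, which a gene can reach through its higher library alone. Nothing is read from these shares.

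The genes around ATF4 in the stress response did not share its direction at the scaling by library totals, where 99.9% of all tested genes were lower. Their called direction depended on the scaling and on the offset. Of the eIF2alpha kinases, 2 of 4 had a listed entry: EIF2AK1, activated by haem lack, and EIF2AK2, activated by double-stranded RNA, had 1 fragment each under glucose deficiency and 0 under glutamine deficiency, against 70 and 100 in the control. EIF2AK4, the kinase that senses uncharged tRNA, had no listed entry. Of the eIF2 and eIF2B subunits, 3 of 8 were listed, with 0 fragments in both deprived libraries. EIF2S3, the gamma subunit of eIF2, had 0 and 0 fragments there and 415.5 in the control. Of the phosphatase genes that reverse the eIF2alpha mark, 4 of 5 were listed, with PPP1R15A, the stress-induced regulatory subunit, at 0 and 0 fragments in the deprived libraries and 1116.5 in the control. With ATF4 and its pseudogenes left out of the totals, both kinases and 3 of the 4 phosphatase genes were at least 2-fold higher in both comparisons, and the other phosphatase gene was lower. Of the 3 eIF2 and eIF2B genes, 3 were higher under glucose deficiency and 2 under glutamine deficiency. At that scaling 5205 of 5931 tested genes were higher under glucose deficiency and 4977 of 5928 under glutamine deficiency, which also stand beside the lists that follow. With the offset also taken off, both listed kinases were at least 2-fold higher under glucose deficiency, each on 1 fragment. Both were lower under glutamine deficiency, while all 4 phosphatase genes and all 3 eIF2 and eIF2B genes were lower in both comparisons. Each of these lower calls had 0 deprived fragments. Outside ATF4 and its pseudogenes lay only 12936 (glucose) and 14450 (glutamine) fragments, most in no listed entry, so 0 fragments set a loose upper limit. Such a lower call does not measure direction well, here or in the lists that follow. With the offset kept in, a higher call on 0 deprived fragments is the scaled offset and measures no direction either. Under glutamine deficiency every listed gene here, and every listed zipper, degradation and target gene below, had 0 fragments.

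Of 26 zipper partners and relatives of ATF4, 12 were listed, and all 12 were at least 2-fold lower in both comparisons by library totals, where 99.9% of tested genes were. Totals without ATF4 and its pseudogenes turned 10 of the 12 higher under glucose deficiency and 8 under glutamine deficiency. Of the 12, 11 had 0 fragments under glucose deficiency and 12 under glutamine deficiency, so nearly all of these higher calls are the scaled offset. With the offset also taken off, 0 were higher and 11 and 12 lower. The stress-induced factor ATF3, itself a known ATF4 target, had 0 fragments in each deprived library and 451.5 in the control. JUN, a subunit of AP-1, had 2 fragments under glucose deficiency, 0 under glutamine deficiency and 510.5 in the control. CEBPG, a C/EBP protein that pairs with ATF4, had 0, 0 and 132. Of 6 genes of ATF4 degradation 2 were listed: FBXW11, a substrate adaptor of a ubiquitin ligase that marks ATF4, had 1 and 0 fragments in the glucose-deficient and glutamine-deficient libraries and 104.5 in the control. Totals without ATF4 and its pseudogenes turned both degradation genes higher in both comparisons; with the offset also taken off, 1 was higher and 1 lower under glucose deficiency and both were lower under glutamine deficiency. MGRN1, the relative of RNF157, had 1 and 0 fragments there and 30 in the control.

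Of 35 known ATF4 targets, 28 were listed. All 28 were at least 2-fold lower in both comparisons by library totals, beside 99.9% of all tested genes. Totals without ATF4 and its pseudogenes turned 22 of them higher under glucose deficiency and 18 under glutamine deficiency. Since all 28 had 0 fragments under glutamine deficiency, those 18 calls are the scaled offset alone. With 23 of the 28 at 0 fragments under glucose deficiency, most of the 22 are too. With the offset also taken off, 1 was higher and 25 lower under glucose deficiency, and 0 higher and 28 lower under glutamine deficiency. The median log2 ratio of the 28 was −5.98 in the glucose and −6.01 in the glutamine comparison. In the glucose-deficient library 23 had 0 fragments and none more than 6, and in the glutamine-deficient library all 28 had 0. The 4 with the highest control level were YARS1 and GARS1, which charge tRNA with tyrosine and glycine, SLC7A1, a transporter of cationic amino acids, and STC2, a secreted glycoprotein. YARS1 had 0 fragments in both deprived libraries and 963 in the control. SLC7A1 had 1 fragment under glucose deficiency, 0 under glutamine deficiency and 788 in the control. ATF4 RNA was thus at the top of the deprived libraries while its targets had few or 0 fragments there. Outside ATF4 and its pseudogenes lay few fragments, 12936 with glucose deficiency and 14450 with glutamine deficiency, most of them in no listed entry. The level of a target among the remaining RNA could therefore not be measured well.

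The genes most like the members, by log2 ratio over the 2 libraries compared, are the highest-ranked tested genes outside them. In the glucose comparison they were LINC02432, with 106 fragments in the glucose-deficient library and 0 in the control (log2 ratio 2.56), LINC00343, with 33 and 0 (1.30), and NOL4L, with 45 and 1 (1.29). These 3 had 0.132, 0.132 and 0.397 RPM in the control, under the filter of 1 RPM. They were therefore tested only through the library in which they were high, and no difference between the comparisons is read from them. Annotated transcripts of these 3 genes gave 0 matches to the ATF4 mRNA. In the glutamine comparison the genes ranked highest outside the members, DNAJC1, ARHGEF7 and USP5, went the other way. They had 0 fragments in the glutamine-deficient library and 9.5, 10 and 11 in the control, log2 ratios of −1.83, −1.88 and −1.98. With 0 fragments, their rank follows from the pseudocount and their low control levels of 2.64, 2.78 and 3.04 RPM. No gene outside the members was higher in that comparison at the scaling by library totals.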

How the data were processed

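RNA of 3 libraries of 95D cells was measured by paired sequencing of 150 nt after ribosomal RNA depletion, per the labels' protocols, with 50 pmol of bait, 30 min on beads and 1 h with lysate at 4 °C. The authors deposited RPM values, per the file headers. Per the submitters' processing notes, HISAT2 2.0.5 and the hg38 build were used. Not given in the sources used here: how entries were called and chosen, whether counting used strand, and how reads with several alignments were handled. The glutamine-deficient sample's label names the glucose column, so its own file set the mapping. Each block holds 691 entries that name no gene, of 14338 and 14333, left out of gene counts. The 0 columns of other samples needed no rule.

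RPM divided by the lowest step, less 0.5 fragment, was rounded to 0.5 fragment. Below 1000 RPM the distance from such a step was at most 0.00366 fragment. Whole fragments made up 99.96% of glucose-deficient, 99.98% of glutamine-deficient and 63.3% of control values, and the rest lay 0.5 fragment away. A gene is the sum of its entries, tested at 1 RPM or more in either library, and called at a ratio of 2 on log2(RPM + 1), which understates low genes. Fold intervals are exact conditional binomial and shares are Clopper-Pearson, both on fragments without the offset, whose steps of 0.5 fragment enter as they are. No p-value was computed, with 1 library per group. The members, lists and named-gene rule (members, neighbours within 50 kb, the 3 likest genes per comparison, up to 4 per list by control level) were chosen with earlier results of these data known. UBALD2 is the only listed neighbour. Coding sequences were aligned with Biopython 1.88 and the transcripts searched with blastn 2.17.0 at an E-value of 0.001. Of the identifiers, 0 were without a name in the gene name table. Other tools were matplotlib 3.10.9, scipy 1.17.1, numpy 2.4.6 and pandas 2.3.3 in Python 3.11.15, and steps were tested on simulated data. Alternatives were other pseudocounts, filters, folds, scalings and denominators, and the offset taken off.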

Additional observations from a re-analysis of the deposited data

Results flagged for a closer look

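An entry that names no gene, and so enters no comparison above, was higher in the deprived libraries than the control, where it had 0 fragments and a count of 0 allows up to 0.793 RPM. Glucose-deficient cells gave 1.41 RPM (26 fragments) and glutamine-deficient cells 0.847 RPM (15 fragments), and whether both blocks list the same bases was not tested.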

How the results depend on the processing

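Of 86 recomputed values under alternatives, over 19 results, 53 lay in the 95% counting interval or no farther from the reported value than its wider arm (for counts, within 1.5 times), and 33 moved farther. Of the 86, 8 were chosen after seeing the data. Of ratios past 2-fold, 0 changed sign; ATF4P4 between the deprived libraries, under 2-fold with its entries summed, did change sign, from a log2 ratio of 0.21 to −1.31 with 1 entry. Pseudocounts of 0 and 5 RPM and taking the offset off moved no ratio of a member by more than that. Totals without ATF4 and its pseudogenes raised the log2 ratio of ATF4 to 22.53 in the glucose and 22.34 in the glutamine comparison, of the shared entry to 16.95 and 16.46, and of ATF4P4 to 14.21 and 13.81. Median-of-ratios scaling, resting on 22 of 13641 entries with fragments in all libraries, gave 23.47 and 23.32, 17.89 and 17.44, and 15.14 and 14.79. These shifts follow from the scaling's own construction. Between the deprived libraries, totals without the family gave log2 ratios of 0.197 for ATF4, 0.49 for the shared entry and 0.41 for ATF4P4. The entry with the control's 36.5 fragments alone gave ATF4P4 2.21 over the control in the glucose comparison, that −1.31 against the glutamine-deficient library, and 0.702 pseudogene fragments per 1000 ATF4 in the glucose-deficient library, against 0.795 with all entries. With listed entries as the denominator ATF4 held 99.914% of the glucose-deficient, 99.934% of the glutamine-deficient and 0.105% of the control library.

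Counts of genes depended on the scaling. In the glucose comparison totals without the family gave 5205 higher and 99 lower, and median-of-ratios scaling 5653 and 32, against 7 and 5924 by library totals. In the glutamine comparison they gave 4977 and 144, and 5566 and 69, against 4 and 5924. With the offset also taken off, the higher counts were 250 and 364 in the glucose and 23 and 27 in the glutamine comparison, so most of the higher calls above come from the scaled offset. No paired analysis was possible because each group has 1 library.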
